A study of Mus musculus with 24 samples.

Results

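The 41 genes described here are interferon response genes, chosen as a list of symbols that were looked up among the 55414 gene lines of each count table, and all 41 were found there. They comprise 30 effector genes (the ISG15 system, the IFIT and OAS families with PKR, sensors of foreign RNA and DNA, and Mx, viperin and other antiviral genes), 6 GTPases of the guanylate-binding protein (GBP) and immunity-related GTPase (IRG) families, and 5 regulators (Irf1, Irf7, Irf9, Stat2 and Socs1). The rule uses no cutoff on these measurements, but the members were chosen with earlier results of these data known. Their shares beside those of all genes are therefore a description. All 41 genes passed the low-count filter of every model fitted.

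Messenger RNA was measured in 24 libraries, 3 in each of 8 groups, from dendritic cells (DCs) grown out of mouse bone marrow. FL cultures grew in the cytokine GM-CSF (20 ng/ml) plus the growth factor FLT3L (200 ng/ml) and were sampled after 24 h with 0.05 µM AZD5582, after 24 h with DMSO, the solvent, or on day 16 (t0). GM cultures grew in the same amount of GM-CSF alone until they were sampled on day 8 (t0), after 24 h with DMSO, or after 24 h with 0.1, 0.5 or 1 µM AZD5582. AZD5582 is a small molecule that antagonises the inhibitor of apoptosis proteins (IAPs), and it came out of the study's compound screen for T cell proliferation driven by cross-presenting DCs. The mice were Cas9-EGFP or wild-type C57BL/6JRj, and no source used here gives the genotype of each library. The submitters call the 3 libraries of a group biological replicates. The FL libraries carry the numbers 91, 94 and 95, and the GM libraries are numbered 1 to 3 within 1 further number. These are read here as culture numbers, which no label states. Nor does a label say whether the libraries came from separate animals. The p-values therefore measure the spread between these libraries, which may be technical in part. No dose was used in both kinds of culture.

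Interferons are secreted proteins that cells make when sensors detect viral or misplaced nucleic acids. Type I interferons act through a receptor made of IFNAR1 and IFNAR2 and a complex with STAT2 and IRF9 that binds the interferon-stimulated response element (ISRE), whereas type II interferon acts through IFNGR1 and IFNGR2 and on genes with the gamma-activated site (GAS). The induced genes cut or trap viral RNA, block virus entry and release, and attack vacuoles that hold bacteria or parasites, while IRF1 and IRF7 extend the response and SOCS1 and USP18 limit it. In DCs the same programme accompanies activation for antigen presentation.

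The promoter windows of members on both sides of the AZD5582 response hold the letters of these elements, and 7 stretches are shown because they include genes that rose (Isg15, Bst2, Gbp5 and Irf1) and genes that fell (Ifit1, Ifit3 and Irgm1) in treated GM cultures. The sequences are RefSeq's for build GRCm38.p6, from windows of 250 bases before to 50 bases after each gene's start, and are written 5′ to 3′ along the gene with matches in capitals. The ISRE core was searched as GAAA, 2 bases of any kind and GAAA, or as TTTC, 2 bases and TTTC for the other strand, and the GAS core as TTC, 3 bases of any kind and GAA, which reads the same on both strands. Isg15 is at chr4:156200860-156200911, minus strand, and holds 3 overlapping ISRE core matches. Bst2 is at chr8:71537572-71537623, minus strand, where a GAS core match runs into 2 overlapping ISRE core matches. Gbp5 is at chr3:142496754-142496905, plus strand, with 1 ISRE core match and then 1 GAS core match, and a second GAS core match lies upstream of the printed stretch. Irf1 is at chr11:53769909-53769947, plus strand, with 1 GAS core match. Ifit1 is at chr19:34640770-34640828, plus strand, and Ifit3 is at chr19:34583358-34583431, plus strand, each with 2 ISRE core matches. Irgm1 is at chr11:48871421-48871465, minus strand, with 2 overlapping ISRE core matches.
Isg15: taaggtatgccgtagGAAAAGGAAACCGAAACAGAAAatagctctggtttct
Bst2: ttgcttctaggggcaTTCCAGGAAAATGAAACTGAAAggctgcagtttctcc
Gbp5: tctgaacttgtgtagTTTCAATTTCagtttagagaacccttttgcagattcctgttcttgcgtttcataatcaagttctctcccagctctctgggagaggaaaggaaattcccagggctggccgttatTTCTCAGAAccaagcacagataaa
Irf1: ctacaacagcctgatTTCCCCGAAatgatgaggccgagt
Ifit1: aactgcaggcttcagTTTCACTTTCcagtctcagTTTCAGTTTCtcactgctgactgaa
Ifit3: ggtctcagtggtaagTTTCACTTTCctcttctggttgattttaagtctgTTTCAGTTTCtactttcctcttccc
Irgm1: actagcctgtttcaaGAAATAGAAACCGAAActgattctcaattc

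A window was given for 30 of the 41 members, and 18 of these (60%) hold an ISRE core match, against 3.99% of the 27025 genes in the table. The matches were in 11 of 20 effector windows, all 5 GTPase windows and 2 of 5 regulator windows (Stat2 and Socs1). GAS core matches were in 8 of 30 members (26.7%), against 9.55% of all genes. Of the members that rose at 1 µM, 4 of 8 with a window hold an ISRE core match and 4 of 8 a GAS core match, and of those that fell, 12 of 18 and 4 of 18 do. These matches are letters in a window of fixed size and do not show binding.

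Depth was 27.01 to 85.82 M gene counts per library (M is 10 to the power of 6; median 51.73 M), and levels are given in CPM (counts of a gene per M counts of its library) after scaling over all 24 libraries. The 6 dendritic cell markers (Itgax, Flt3, Zbtb46, H2-Ab1, Cd74 and Ccr7) were detected in every group, with a median summed level between 12536 and 19885 CPM. This sum hides moves in both directions. In GM cultures mean Itgax, H2-Ab1 and Cd74 went from 1150, 2820 and 9380 CPM at t0 to 160, 875 and 6380 at 1 µM. Mean Flt3, Zbtb46 and Ccr7 went from 4.55, 29.1 and 232 CPM to 181, 197 and 6380 CPM. Markers of other cell types moved with AZD5582 in GM cultures. The summed level of 8 macrophage markers had medians of 2690 CPM at t0, 3472 CPM in DMSO, and 984, 496 and 420 CPM at 0.1, 0.5 and 1 µM. The 5 monocyte markers had medians of 620, 571, 76.6, 15 and 13.3 CPM in the same order, and the 7 neutrophil markers 320, 377, 26.8, 7.16 and 6.25 CPM. In RNA from whole cultures, fewer cells of a type and less RNA per cell cannot be told apart, and the part of these markers in the results below was not tested. The submitters name the FL cultures after type 1 conventional DCs (cDC1). The sum of 6 cDC1 markers had medians of 187 CPM with AZD5582, 287 CPM in DMSO and 795 CPM at t0 there. In the 5 GM groups it was 61.4 to 89.7 CPM. In FL cultures mean Batf3 was 123 CPM with AZD5582, 102 CPM in DMSO and 47.7 CPM at t0. Xcr1 went the other way, at 2.07, 16.6 and 212 CPM in that order, as did Clec9a, Cadm1, Itgae and Tlr3. Treated GM groups had 70.4 to 83.6 CPM of Batf3, and Xcr1, Clec9a and Cadm1 were at most 0.911 CPM in every GM group. The FL DMSO library of culture 91 stood apart from the other two, and FL results are given with and without that culture. Genes encoding interferons themselves were at the edge of detection, since 13 of 20 had no count in any library and none passed the low-count filter. All 20 together had 82 counts over the 24 libraries, of which 50 belonged to Ifnb1, the interferon-beta gene, with at most 8 in 1 library.

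**Figure D1:**
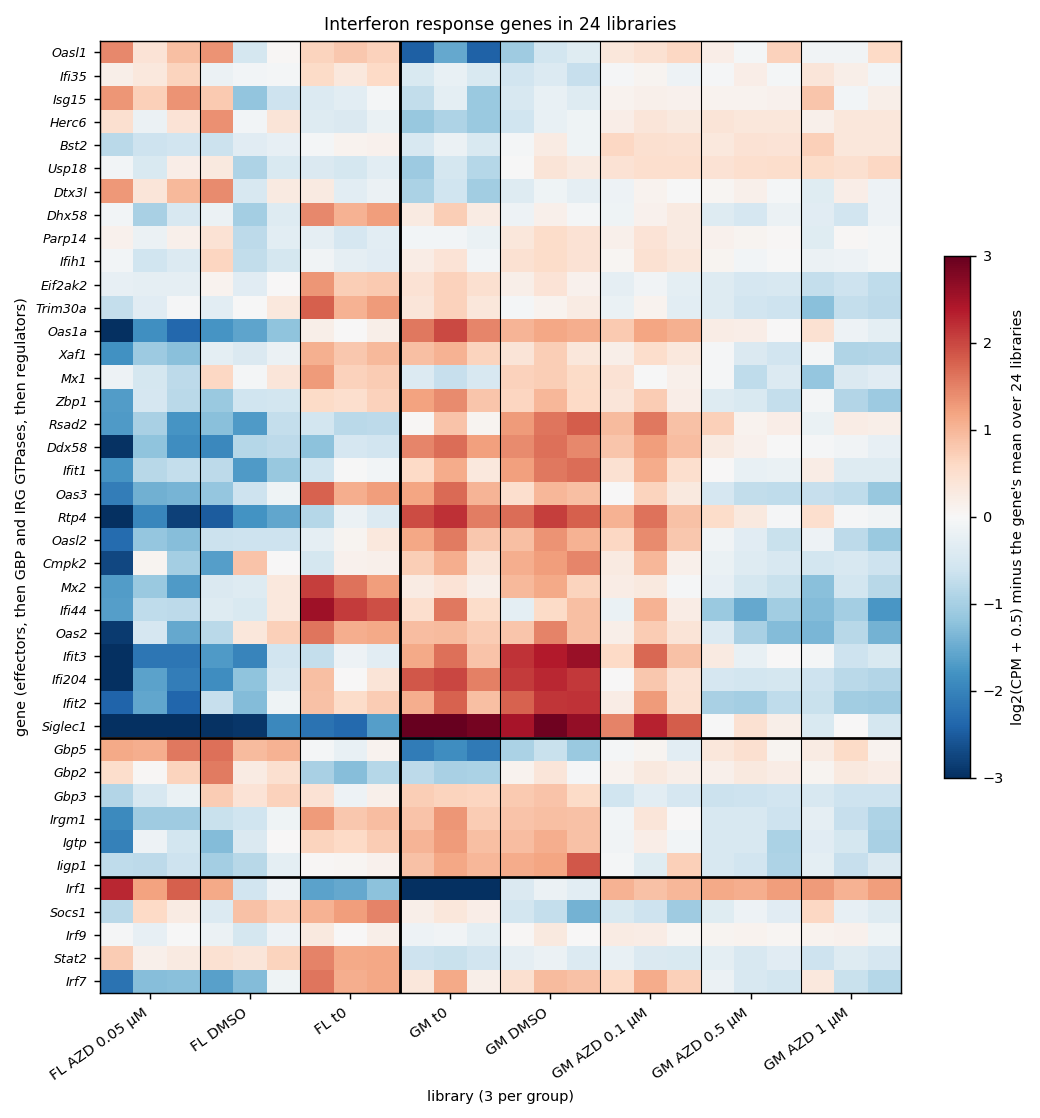
Heat map of the 41 interferon response genes (rows, by role and then by their change at 1 µM) in the 24 libraries (columns, 3 per group). Colour is log2(CPM + 0.5) minus the gene's mean over all libraries, so that red is above and blue below that mean. In GM cultures the upper effector rows turn red and most others turn blue as the AZD5582 dose increases, and Siglec1 is below its mean in every FL library.

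In GM cultures more of the interferon response genes fell than rose with AZD5582. Against DMSO, 8 of the 41 rose and 13 fell at 0.1 µM (Benjamini-Hochberg adjusted p under 0.05 over all genes, edgeR's quasi-likelihood test), where 19.9% of all 16152 genes tested rose and 20.3% fell. At 0.5 µM 10 rose and 27 fell, with 25.8% and 27.7% of all genes. At 1 µM 9 rose and 27 fell, with 26.9% and 28.2% of all genes. In this fit the share of members that rose was near or below that of all genes at each dose, and the share that fell was above it. At 0.1 µM the falls numbered 9 to 16 with 1 library left out. The shares of all genes in this paragraph are those of this fit only, so the excess of falls at 0.1 µM is not shown for other settings. The median log2 fold change of the 41 was -0.12, -0.95 and -1.01 at the 3 doses, against -0.01, -0.03 and -0.01 over all genes tested. These 3 comparisons share the same DMSO libraries. Without the second 0.5 µM library 6 members rose at 0.5 µM. In 1 model of all 24 libraries, where the spread of the FL cultures enters, 5 rose and 8 fell at 0.1 µM, and 5 rose at 0.5 µM and at 1 µM. The calls this model lost were those of Isg15, Usp18, Herc6, Ifit1, Ddx58, Cmpk2, Siglec1 and Igtp at 0.1 µM, of Isg15, Usp18, Oasl1, Dtx3l, Socs1, Ifih1 and Parp14 at 0.5 µM, and of Isg15, Usp18, Herc6 and Oasl1 at 1 µM.

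By role, of the 30 effector genes, 6 rose and 9 fell at 0.1 µM, 7 rose and 22 fell at 0.5 µM, and 6 rose and 22 fell at 1 µM, with medians of -0.19, -1.05 and -1.22. Of the 6 GTPases, 1 rose and 4 fell at each dose, with medians of -0.81, -1.30 and -1.30. Of the 5 regulators, 1 rose and 0 fell at 0.1 µM, also 0 at an unadjusted p under 0.05 and with DESeq2, and 2 rose and 1 fell at 0.5 µM and at 1 µM, with medians of 0.12, 0.06 and 0.03. The regulators had the only median near that of all genes at 0.5 and 1 µM.

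All 3 genes of the ISG15 system rose. Isg15 encodes a ubiquitin-like protein that is attached to newly made proteins. It had 26.1, 35.9 and 20.2 CPM at t0, 31.5, 38.1 and 33.8 CPM in DMSO, 47.9, 49.1 and 48.2 CPM at 0.1 µM, 47.4, 47.5 and 48.4 CPM at 0.5 µM and 78.6, 41.8 and 49.9 CPM at 1 µM. Every treated library lay above every DMSO library, and the spread was widest at 1 µM, where the first library was highest. That library had 8.04% mitochondrial counts and 16.4% of reads in lines that name no gene, the highest of the 24 libraries, of which the others had at most 4.90% and 15.8%. The log2 fold changes against DMSO were 0.56 ± 0.21, 0.56 ± 0.21 and 0.83 ± 0.21 (standard error, SE; adjusted p = 0.0419, 0.0313 and 0.00292), and without that library the change at 1 µM was 0.50 ± 0.16 (adjusted p = 0.0187). Herc6, the ligase that attaches ISG15 in mice, had 23.6, 27.7 and 24.1 CPM at t0, 34.5, 45.4 and 47.9 CPM in DMSO, 60.8, 68.4 and 64.4 CPM at 0.1 µM, 69.3, 66.8 and 66.3 CPM at 0.5 µM and 58.8, 66.9 and 66.6 CPM at 1 µM. Treated and DMSO libraries did not overlap, and the 3 doses overlapped with each other. Its log2 fold changes were 0.67 ± 0.11, 0.76 ± 0.11 and 0.70 ± 0.11 (adjusted p = 7.66e-05, 1.22e-05 and 2.89e-05). Usp18, which removes ISG15 and blocks the type I receptor, had 52.7, 78.7 and 62.8 CPM at t0, 112, 149 and 136 CPM in DMSO, 152, 160.5 and 161 CPM at 0.1 µM, 153, 161 and 163 CPM at 0.5 µM and 165, 158 and 175 CPM at 1 µM. The t0 libraries were the lowest and the treated ones the highest, without overlap, at log2 fold changes of 0.33 ± 0.12, 0.36 ± 0.12 and 0.44 ± 0.12 (adjusted p = 0.0403, 0.0193 and 0.00554). The calls of Isg15 and Usp18 at the lower doses were narrow: that of Isg15 at 0.1 µM was lost without any 1 of the 6 libraries (adjusted p 0.0513 to 0.142), and that of Usp18 without any but the second DMSO library (0.0591 to 0.214). At 0.5 µM the call of Isg15 was lost without any but the second DMSO library (0.0621 to 0.109) and that of Usp18 without any of 3 libraries (0.0509 to 0.12). In the model of all 24 libraries the 1 µM values of Isg15, Usp18 and Herc6 were 0.72, 0.33 and 0.59 (adjusted p = 0.105, 0.252 and 0.06).

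The IFIT proteins bind viral RNA that lacks the cap marks of the host, and all 3 of their genes fell at every dose. Ifit2 had 25, 40.9 and 21.9 CPM at t0, 40.7, 53 and 53.4 CPM in DMSO, 13.6, 28.5 and 16 CPM at 0.1 µM, 5.6, 5.49 and 6.62 CPM at 0.5 µM and 7.08, 5.32 and 5.27 CPM at 1 µM. The 0.5 and 1 µM libraries were the lowest and did not overlap with those at 0.1 µM, which in turn lay below all DMSO libraries. This gave log2 fold changes of -1.28 ± 0.26, -2.96 ± 0.28 and -2.95 ± 0.28 (adjusted p = 0.000987, 2.63e-07 and 2.71e-07). Ifit3, a partner of the other IFIT proteins, had 14.8, 21.2 and 12 CPM at t0, 30.6, 35.9 and 41.2 CPM in DMSO, 10.0, 22.4 and 12.4 CPM at 0.1 µM, 7.83, 5.46 and 6.49 CPM at 0.5 µM and 6.21, 4.01 and 4.54 CPM at 1 µM. The order of the groups was that of Ifit2, and the log2 fold changes were -1.20 ± 0.27, -2.36 ± 0.29 and -2.76 ± 0.29 (adjusted p = 0.00227, 3.98e-06 and 9.01e-07). Ifit1 fell too, with log2 fold changes of -0.74 ± 0.23, -1.60 ± 0.23 and -1.60 ± 0.24, and its call at 0.1 µM was lost without the first or the third 0.1 µM library or the third DMSO library (adjusted p 0.056 to 0.0768). Ifit3 has a near-identical copy, Ifit3b, at -1.67, -3.01 and -3.38 on the log2 scale, and reads may be shared between them.

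When double-stranded RNA binds them, OAS enzymes make a messenger that switches on an RNA-cutting enzyme. PKR (Eif2ak2) stops protein synthesis when it binds such RNA. Of the 6 OAS, OAS-like and PKR genes 5 fell and 1 rose at 0.5 and 1 µM. Oas2 had 11.6, 11.7 and 10.3 CPM at t0, 10.8, 17.2 and 11.3 CPM in DMSO, 6.7, 10.3 and 7.81 CPM at 0.1 µM, 4.25, 2.73 and 2.09 CPM at 0.5 µM and 1.94, 3.09 and 1.87 CPM at 1 µM. Every treated library was below every DMSO library, but the change at 0.1 µM was not called. Against DMSO it stood at log2 fold changes of -0.60 ± 0.24, -2.05 ± 0.26 and -2.41 ± 0.27 (adjusted p = 0.0602, 2.94e-06 and 5.34e-07). Eif2ak2 had 42.3, 50.2 and 43.9 CPM at t0, 34.9, 41.5 and 34 CPM in DMSO, 25.9, 28.9 and 25.2 CPM at 0.1 µM, 23.5, 21.8 and 22.3 CPM at 0.5 µM and 18.6, 20.1 and 18 CPM at 1 µM. The 4 groups of the 24 h series did not overlap, each dose lying below the next lower one. Its log2 fold changes were -0.39 ± 0.10, -0.62 ± 0.10 and -0.85 ± 0.10 (adjusted p = 0.00437, 5.36e-05 and 1.28e-06). Oasl1, which in mice restrains the translation of Irf7 mRNA, went the other way, with 4.32, 8.48 and 4.37 CPM at t0, 12.1, 17.3 and 19.9 CPM in DMSO, 32.4, 35.5 and 39.5 CPM at 0.1 µM, 29.4, 24.8 and 41.6 CPM at 0.5 µM and 23.8, 23.7 and 39.1 CPM at 1 µM. All treated libraries were above all DMSO libraries, and the doses overlapped with each other. This gave log2 fold changes of 1.20 ± 0.27, 1.05 ± 0.27 and 0.92 ± 0.27 (adjusted p = 0.00239, 0.00411 and 0.00939). Its call at 1 µM was lost without the first DMSO library (adjusted p = 0.0524), without the third 1 µM library (adjusted p = 0.0622) and in the model of all 24 libraries (adjusted p = 0.0956). Oas3 and Oas1a, both RNA-activated synthetases, fell at 1 µM (log2 fold changes of -1.60 ± 0.21 and -0.96 ± 0.18), as did Oasl2, an OAS-like protein (-1.65 ± 0.28). None of these 3 was called at 0.1 µM. Oas1g, a close copy of Oas1a, was 0.52 at 0.1 µM and -0.56 at 1 µM, and reads may be shared between the copies.

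Among the sensors, Ddx58 (RIG-I) and Ifih1 (MDA5) detect viral RNA in the cytoplasm. Ddx58 had 65.3, 75.8 and 55.6 CPM at t0, 63.1, 74.1 and 64.3 CPM in DMSO, 41.9, 56.4 and 44.8 CPM at 0.1 µM, 28.3, 25.7 and 23.3 CPM at 0.5 µM and 22.7, 21.7 and 19.5 CPM at 1 µM. No 2 of the 4 groups of the 24 h series overlapped, and the 1 µM libraries were the lowest. Against DMSO it stood at log2 fold changes of -0.42 ± 0.13, -1.29 ± 0.13 and -1.55 ± 0.13 (adjusted p = 0.014, 1.95e-07 and 1.98e-08), the call at 0.1 µM being lost without the first or the third 0.1 µM library or the second DMSO library (adjusted p 0.0531 to 0.0781). Ifih1 had 40.7, 46.4 and 32.9 CPM at t0, 48.2, 50.9 and 46.9 CPM in DMSO, 36, 47.9 and 43.8 CPM at 0.1 µM, 37, 32.8 and 34.4 CPM at 0.5 µM and 30.9, 31.2 and 33.2 CPM at 1 µM. The 0.1 µM and DMSO libraries overlapped, and the changes of -0.39 ± 0.12 at 0.5 µM and -0.51 ± 0.12 at 1 µM were called. Dhx58 (LGP2), which tunes both sensors, was not called at any dose, at 0.18, -0.26 and -0.23. Ifi204, a DNA sensor of the mouse, had 68.5, 75.4 and 53.3 CPM at t0, 81.1, 90.3 and 81.7 CPM in DMSO, 18.7, 32.9 and 25 CPM at 0.1 µM, 12.8, 12.4 and 12.7 CPM at 0.5 µM and 11.8, 10.4 and 9.81 CPM at 1 µM. All 9 treated libraries were below all DMSO and all t0 libraries. Its log2 fold changes were -1.66 ± 0.16, -2.65 ± 0.17 and -2.88 ± 0.17 (adjusted p = 2.25e-07, 5.17e-10 and 1.82e-10). Zbp1, a sensor of Z-form nucleic acid that can start necroptosis, had 48.5, 56 and 37.3 CPM at t0, 32.7, 41.6 and 31.6 CPM in DMSO, 27, 35.8 and 24 CPM at 0.1 µM, 15.7, 15.1 and 12.5 CPM at 0.5 µM and 20.0, 11.1 and 9.49 CPM at 1 µM. It was not called at 0.1 µM (-0.22 ± 0.24) and fell at 0.5 and 1 µM (-1.20 ± 0.25 and -1.27 ± 0.25, adjusted p = 0.000747 and 0.000454).

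The group of Mx, viperin and other antiviral genes held 11 members, of which 2 rose and 9 fell at 0.5 and at 1 µM, and 2 rose and 3 fell at 0.1 µM. Siglec1, the sialic acid receptor CD169 of macrophages and activated monocytes, had 55.4, 63.6 and 37.4 CPM at t0, 28.4, 38.9 and 31.8 CPM in DMSO, 14, 25.3 and 17.9 CPM at 0.1 µM, 4.7, 6.69 and 5.33 CPM at 0.5 µM and 3.28, 4.77 and 3.12 CPM at 1 µM. No treated library reached a DMSO library, and the ranges at 0.5 and 1 µM touched. The log2 fold changes were -0.73 ± 0.22, -2.46 ± 0.24 and -3.05 ± 0.25 (adjusted p = 0.0154, 2.2e-07 and 2.71e-08), and the call at 0.1 µM was lost without the first or the third 0.1 µM library or the second DMSO library (adjusted p 0.0513 to 0.0797). Mx2, an interferon-induced GTPase, had 4.08, 4.63 and 3.9 CPM at t0, 7.13, 8.07 and 5.69 CPM in DMSO, 4.04, 4.28 and 3.31 CPM at 0.1 µM, 2.76, 2.22 and 1.95 CPM at 0.5 µM and 1.12, 2.16 and 1.67 CPM at 1 µM. Treated libraries lay below all DMSO libraries, at log2 fold changes of -0.78 ± 0.21, -1.51 ± 0.22 and -1.97 ± 0.22 (adjusted p = 0.00632, 1.13e-05 and 6.42e-07). Ifi35, an interferon-induced protein of the cytoplasm, had 52.4, 60.8 and 51.9 CPM at t0, 47.9, 53.8 and 44.2 CPM in DMSO, 69.7, 75.4 and 63.9 CPM at 0.1 µM, 70.1, 82.2 and 68.9 CPM at 0.5 µM and 92.5, 80.9 and 67.9 CPM at 1 µM. It rose in all 9 treated libraries relative to every DMSO library, by 0.59 ± 0.12, 0.69 ± 0.12 and 0.84 ± 0.12 (adjusted p = 0.000824, 0.00011 and 1.4e-05). Bst2 (tetherin), which holds budding viruses on the cell surface, rose by 0.56 ± 0.13, 0.45 ± 0.13 and 0.56 ± 0.13. Rsad2 (viperin), an antiviral enzyme, and Cmpk2, its neighbour and a nucleotide kinase, fell at 1 µM, with log2 fold changes of -1.42 ± 0.25 and -1.79 ± 0.21. Mx1, a GTPase related to Mx2, and Trim30a, a TRIM protein of the mouse, fell there as well (-1.17 ± 0.19 and -0.91 ± 0.14). Rtp4, Xaf1 and Ifi44 also fell, with log2 fold changes of -1.64 ± 0.24, -1.0 ± 0.22 and -2.28 ± 0.48. Cmpk2 was the only one of these 7 called at 0.1 µM (-0.70 ± 0.20), and that call was lost without the first or the third 0.1 µM library (adjusted p = 0.0584 and 0.06).

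Parp14, an ADP-ribosyltransferase, and Dtx3l, a ubiquitin ligase that works with PARP9, changed little. Parp14 had 160.3, 160.0 and 148 CPM at t0, 217, 250.1 and 229.8 CPM in DMSO, 189, 225 and 206 CPM at 0.1 µM, 187, 182 and 176 CPM at 0.5 µM and 134, 176 and 164 CPM at 1 µM. It was below all DMSO libraries at 0.5 and 1 µM, with log2 fold changes of -0.26 ± 0.10 and -0.45 ± 0.10 (adjusted p = 0.0306 and 0.000712); the call at 0.5 µM was lost under median-of-ratios scaling (adjusted p = 0.053) and without any of 3 libraries (0.0666 to 0.132). Dtx3l had 61.5, 78.7 and 58.2 CPM at t0, 91.2, 110.2 and 98.5 CPM in DMSO, 107, 129 and 119 CPM at 0.1 µM, 124.5, 134 and 115 CPM at 0.5 µM and 93.1, 138 and 108 CPM at 1 µM. It was called only at 0.5 µM (0.41 ± 0.13, adjusted p = 0.0153), and not without the first DMSO or the second 0.5 µM library (adjusted p = 0.0742 and 0.0659). It overlaps with Parp9 on the opposite strand.

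**Figure D2:**
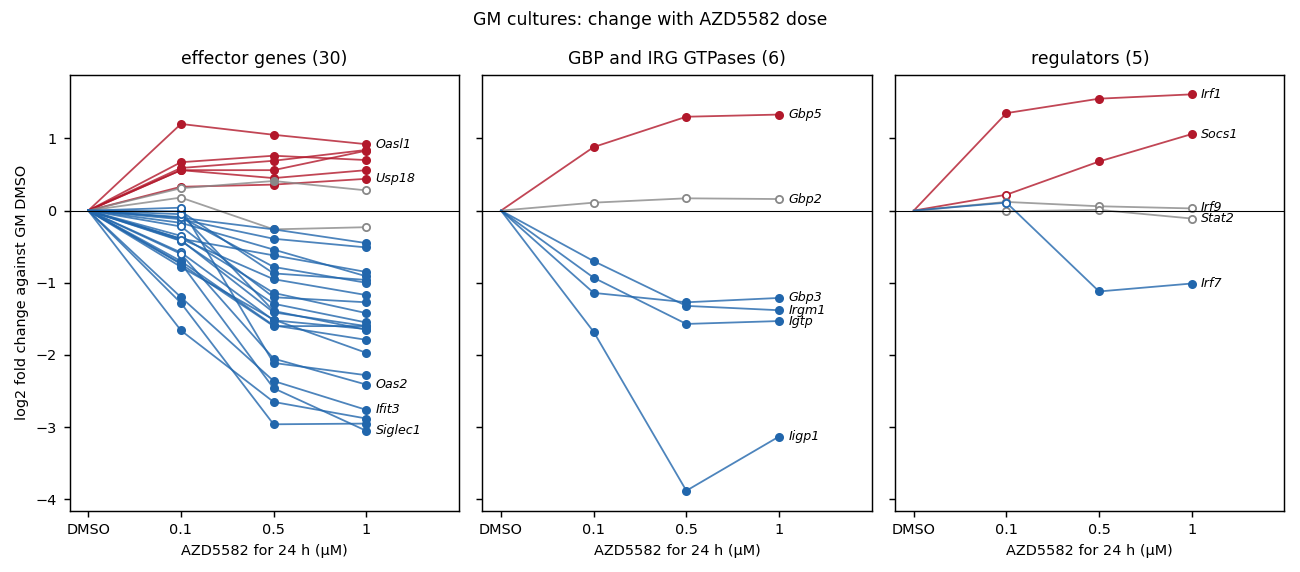
Log2 fold change against GM DMSO (vertical axis) at 0.1, 0.5 and 1 µM AZD5582 (horizontal axis, equally spaced and not to scale) for 30 effector genes, 6 GTPases and 5 regulators. Filled points were called and open points were not; lines are red for genes that rose at 1 µM, blue for genes that fell and grey for genes not called there. Gbp5 and Irf1 rise to 1.33 and 1.61 at 1 µM while most lines end below zero.

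GBPs coat bacteria and the vacuoles around them, and IRG proteins do the same for parasite vacuoles, in a family that is large in mice. Gbp3 had 77.6, 74.2 and 72.9 CPM at t0, 80.2, 84.9 and 69.5 CPM in DMSO, 30.9, 37.7 and 32.9 CPM at 0.1 µM, 29.9, 30.2 and 31 CPM at 0.5 µM and 33.4, 30.4 and 30.2 CPM at 1 µM. The 9 treated libraries lay together, all under the lowest DMSO library, and the log2 fold changes were -1.14 ± 0.10, -1.27 ± 0.10 and -1.21 ± 0.10 (adjusted p = 3.94e-08, 3.85e-09 and 6.37e-09). Gbp5, which also promotes inflammasome assembly, had 35.6, 41.6 and 35.1 CPM at t0, 79.1, 96.1 and 71.2 CPM in DMSO, 148, 163 and 122.5 CPM at 0.1 µM, 193, 214 and 162 CPM at 0.5 µM and 181, 227 and 165 CPM at 1 µM. Each treated library was above all DMSO libraries, which were above all t0 libraries. This gave log2 fold changes of 0.88 ± 0.15, 1.30 ± 0.15 and 1.33 ± 0.15 (adjusted p = 8.87e-05, 6.8e-07 and 5.1e-07). Gbp2 had 192, 171 and 172.5 CPM at t0, 358, 427 and 326.5 CPM in DMSO, 358, 409 and 376 CPM at 0.1 µM, 369.7, 411 and 387 CPM at 0.5 µM and 353, 408 and 387 CPM at 1 µM. DMSO and treated libraries overlapped throughout, at log2 fold changes of 0.11 ± 0.10, 0.17 ± 0.10 and 0.16 ± 0.10 (adjusted p = 0.419, 0.177 and 0.203), and without the second DMSO library it was called at 0.5 and 1 µM (adjusted p = 0.0302 and 0.0353).

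The 3 IRG genes fell at every dose. Irgm1, a regulator that keeps the other IRG proteins off the cell's own membranes, had 64.3, 88 and 59.9 CPM at t0, 63.6, 66.1 and 64.6 CPM in DMSO, 33.3, 45.3 and 35.6 CPM at 0.1 µM, 25.1, 25.1 and 22.7 CPM at 0.5 µM and 28.9, 21.7 and 18.4 CPM at 1 µM. The DMSO libraries were close together and all treated libraries were below them, at log2 fold changes of -0.70 ± 0.16, -1.32 ± 0.17 and -1.38 ± 0.17 (adjusted p = 0.00243, 3.16e-06 and 1.81e-06). Igtp (Irgm3), a second such regulator, had 21, 25.3 and 19.5 CPM at t0, 19.8, 22.3 and 19.2 CPM in DMSO, 9.41, 11.8 and 9.59 CPM at 0.1 µM, 7.18, 7.15 and 4.99 CPM at 0.5 µM and 7.91, 6.86 and 4.94 CPM at 1 µM. Its treated libraries were also all below DMSO, at -0.93 ± 0.18, -1.57 ± 0.18 and -1.53 ± 0.18 (adjusted p = 0.000353, 7.28e-07 and 1.01e-06). Iigp1 (Irga6), an effector that breaks parasite vacuoles, was low, with 1.35, 1.75 and 1.51 CPM at t0, 1.69, 1.79 and 3.18 CPM in DMSO, 0.467, 0.28 and 1.15 CPM at 0.1 µM, 0.225, 0.179 and 0.0319 CPM at 0.5 µM and 0.323, 0.119 and 0.25 CPM at 1 µM. Treated libraries were below DMSO libraries, at 1.15 CPM or less. Its fitted changes were -1.68 ± 0.48, -3.88 ± 0.57 and -3.13 ± 0.54 (adjusted p = 0.0096, 1.53e-05 and 8.91e-05), and the call at 0.1 µM was lost without the third DMSO library (adjusted p = 0.05). Igtp shares exon sequence with Irgm2 on the same strand, and Irgm2 was at -1.10, -1.15 and -1.20 on the log2 scale.

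The regulators did not move as a group. Irf1, a transcription factor that binds ISRE-like sites early in the response, had 36.7, 36 and 31.7 CPM at t0, 283, 337 and 307 CPM in DMSO, 794, 697 and 763 CPM at 0.1 µM, 835, 810.3 and 905 CPM at 0.5 µM and 928, 788 and 906 CPM at 1 µM. The t0, DMSO and treated libraries formed 3 separate ranges, the treated one highest. Its log2 fold changes against DMSO were 1.35 ± 0.10, 1.55 ± 0.10 and 1.61 ± 0.10 (adjusted p = 1.27e-08, 7.86e-10 and 4.25e-10), or 2.55-, 2.92- and 3.04-fold. Irf7, the factor that amplifies type I interferon production, had 26.2, 46.1 and 23.5 CPM at t0, 29.2, 40.4 and 38.3 CPM in DMSO, 31.6, 45.5 and 34.2 CPM at 0.1 µM, 18.1, 14.6 and 14 CPM at 0.5 µM and 25.7, 12.8 and 11.2 CPM at 1 µM. At 0.1 µM the libraries overlapped with DMSO, and at 0.5 and 1 µM all were below it. The log2 fold changes were 0.11 ± 0.30, -1.12 ± 0.31 and -1.01 ± 0.31 (adjusted p = 0.807, 0.00712 and 0.0132), and the call at 1 µM was lost without the second or the third 1 µM library (adjusted p = 0.0707 and 0.0627). Socs1, an inhibitor of the receptor kinases, had 18.7, 20.9 and 18.9 CPM at t0, 11, 9.79 and 5.83 CPM in DMSO, 11.8, 10.4 and 7.61 CPM at 0.1 µM, 12.7, 14.6 and 12.8 CPM at 0.5 µM and 25.4, 13.8 and 12.5 CPM at 1 µM. At 0.5 and 1 µM all libraries were above DMSO, and the first 1 µM library, which stands apart in its mitochondrial share, was above t0 as well. Against DMSO it stood at log2 fold changes of 0.22 ± 0.26, 0.68 ± 0.26 and 1.06 ± 0.26 (adjusted p = 0.545, 0.0371 and 0.00242), with 0.65 at 1 µM, still called, without that library, and the call at 0.5 µM was lost without any of 5 libraries (adjusted p 0.0545 to 0.145). Irf9 and Stat2 belong to the complex that type I interferon activates. Irf9 had 70.5, 72.4 and 63.8 CPM at t0, 80.5, 96 and 79.6 CPM in DMSO, 92.7, 91.2 and 82 CPM at 0.1 µM, 83.6, 84.4 and 81.7 CPM at 0.5 µM and 85, 85.7 and 72.3 CPM at 1 µM. Stat2 had 65.7, 64.3 and 68 CPM at t0, 83.8, 90.1 and 76.4 CPM in DMSO, 87.8, 75.2 and 74.2 CPM at 0.1 µM, 83.5, 72.9 and 80.6 CPM at 0.5 µM and 66.3, 77.6 and 71.8 CPM at 1 µM. The treated and DMSO libraries of both overlapped. Irf9 was at 0.12 ± 0.10, 0.06 ± 0.10 and 0.03 ± 0.10 and Stat2 at -0.01 ± 0.09, 0.01 ± 0.09 and -0.11 ± 0.09 on the log2 scale, none of them called, and at some doses their sign turned with the setting. Irf9 shares exon sequence with Rnf31 on the same strand, and Irf7 and Irf1 with Phrf1 and Gm17334 on the opposite strand. The kit marks strand, but the counting setting was not given in the sources used here.

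The change between the lowest and the highest dose was tested directly. At 1 µM against 0.1 µM, 2 of the 41 rose and 25 fell, with 6.93% and 11.9% of all genes, and their median log2 fold change was -0.74 against 0.00 over all genes. The effectors held 22 of the falls and 0 rises (also 0 at an unadjusted p under 0.05 and with DESeq2), the GTPases 1 rise and 2 falls, and the regulators 1 rise and 1 fall. The largest falls were those of Ifi44, an interferon-induced protein of the cytoplasm (-2.33 ± 0.48, adjusted p = 0.00282), Siglec1 (-2.32 ± 0.25), Oas2 (-1.81 ± 0.27) and Ifit2 (-1.67 ± 0.28). Socs1 (0.85 ± 0.26, adjusted p = 0.0333) and Gbp5 (0.44 ± 0.14, adjusted p = 0.0419) rose. Both rises were lost without the first 1 µM library, without the third 0.1 µM library and when only these groups entered the fit, and 1 was left without the first or the second 0.1 µM library. Isg15, Usp18, Herc6, Bst2 and Gbp3 were not called between these doses. In a model of all 24 libraries 0 rose and 11 fell.

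Part of the programme moved in GM cultures without the compound. Over 24 h in DMSO, 18 members rose and 7 fell relative to t0, with 27.2% and 20.3% of all genes, at a median of 0.30 against 0.09 over all genes. The rises were those of 13 effectors, 2 GTPases and 3 regulators and the falls those of 6 effectors and 1 regulator, and the medians of the roles were 0.30, 0.28 and 0.30. Irf1 had the largest rise, at 3.14 ± 0.11 (adjusted p = 4.41e-13). Oasl1 (1.51 ± 0.28), Rsad2 (1.22 ± 0.25) and Mx1 (1.19 ± 0.19) followed. The 3 IFIT genes also rose, Ifit3 by 1.16 ± 0.27 (adjusted p = 0.00238), but the call of Ifit2 was lost without any of 4 libraries (the first or the third t0 library and the second or the third DMSO library, adjusted p 0.079 to 0.124) and in the model of all 24 libraries (adjusted p = 0.0816). Socs1 had the largest fall, at -1.14 ± 0.26 (adjusted p = 0.00177), ahead of Siglec1 (-0.67 ± 0.22), Oas1a (-0.62 ± 0.17) and Oas3 (-0.52 ± 0.20); the calls of Siglec1, Oas1a and Oas3 were lost in the model of all 24 libraries (adjusted p = 0.17, 0.113 and 0.15). The count of falls rests on single libraries, being 1 without the second t0 library or in the model of all 24 libraries, 2 without the first DMSO library and 4 without the third.

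Against t0, GM cultures with 1 µM AZD5582 had 12 members higher and 24 lower, with 35% and 34% of all genes, at a median of -1.16 against 0.03. Irf1 was 4.75 ± 0.12 higher on the log2 scale (adjusted p = 1.48e-15). Gbp5 (2.45 ± 0.15), Oasl1 (2.43 ± 0.29) and Usp18 (1.46 ± 0.12) came next. The largest deficits were those of Siglec1 (-3.71 ± 0.26), Ifi44 (-2.86 ± 0.48), Iigp1 (-2.62 ± 0.54) and Ifi204 (-2.52 ± 0.17). Mx1, Rsad2, Ifih1, Parp14 and Socs1 were not called in this comparison.

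**Figure D3:**
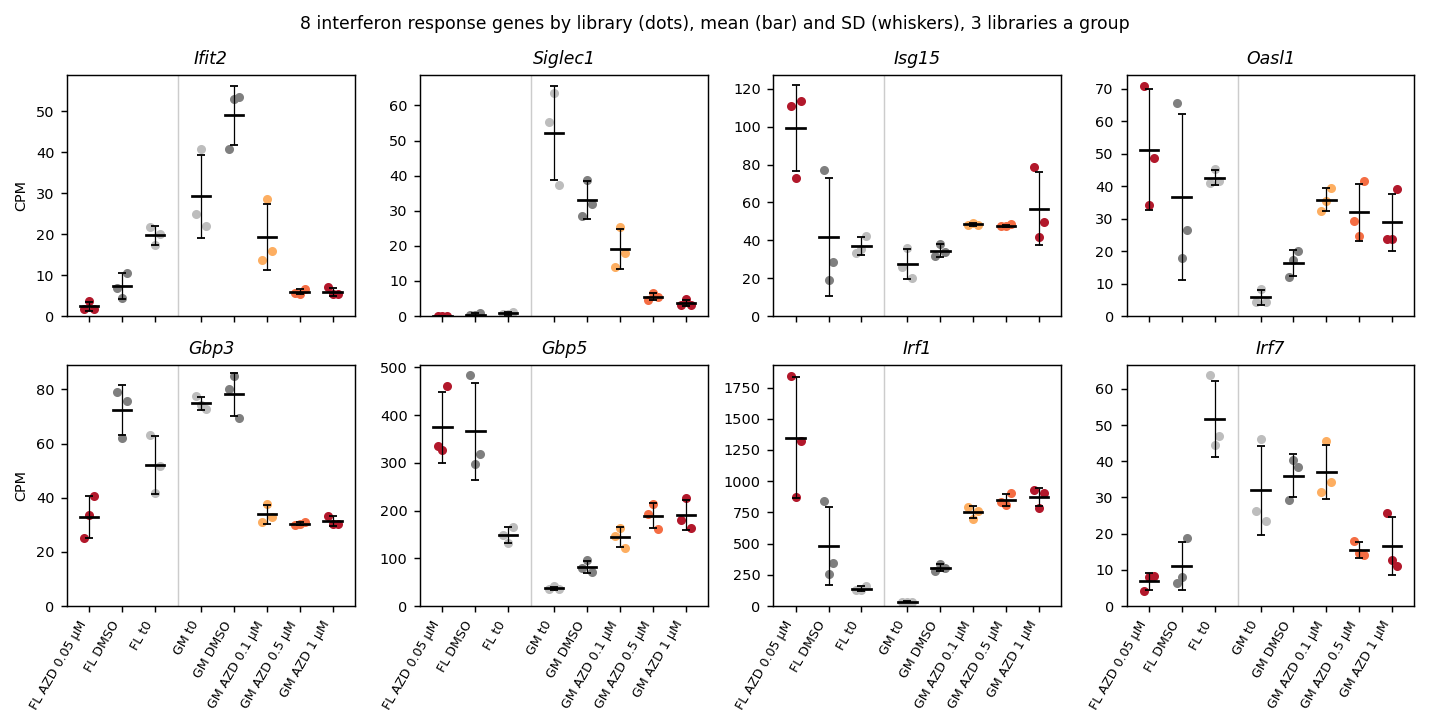
CPM (vertical axis, from 0) of Ifit2, Siglec1, Isg15, Oasl1, Gbp3, Gbp5, Irf1 and Irf7 in every library (dots) of the 3 FL groups (left) and the 5 GM groups (right), with the mean (bar) and SD (whiskers) of 3 libraries. Gbp3 is lower and Irf1 higher with AZD5582 than in DMSO in both kinds of culture, and the FL DMSO library of culture 91 is the highest of its group for Isg15, Oasl1, Gbp5 and Irf1.

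In FL cultures the spread between libraries was larger (biological coefficient of variation 0.39, against 0.146 in GM cultures), and the number of members called with 0.05 µM AZD5582 depended on the model. Against DMSO 0 members rose and 2 fell, with 1.62% and 1.28% of all 15961 genes tested. At an unadjusted p under 0.05, 3 were higher and 13 lower, and DESeq2 called 2 higher and 6 lower. In the model of all 24 libraries, where the spread of the GM cultures enters, 3 rose and 13 fell, among them Ifit2 (-1.62, adjusted p = 0.00218). The shares of all genes above belong to the first of these counts only. Those under the other settings of this paragraph are not given here, so the other counts have no background beside them. The median log2 fold change was -0.62 over the effectors, -0.36 over the GTPases and -0.08 over the regulators, against -0.05 over all genes. Gbp3 had 25.1, 33.5 and 40.5 CPM with 0.05 µM AZD5582, 79.2, 61.9 and 75.8 CPM in DMSO and 63.1, 41.7 and 51.7 CPM at t0. Its treated libraries lay below all DMSO libraries, at -1.14 ± 0.22 (adjusted p = 0.0376). Xaf1, a binding partner of the IAP protein XIAP, had 3.07, 5.38 and 4.77 CPM with 0.05 µM AZD5582, 9.72, 8.88 and 10.7 CPM in DMSO and 25.7, 21.5 and 24.2 CPM at t0. The 3 groups did not overlap, and its change with the compound was -1.15 ± 0.23 (adjusted p = 0.038). Both calls were lost when only the compared groups entered the fit (adjusted p = 0.111 and 0.164). The number of falls was 0 without any 1 of 4 libraries (the AZD5582 and DMSO libraries of culture 95, the AZD5582 library of culture 91 and the DMSO library of culture 94), and without the DMSO library of culture 91 there were 3 rises and 5 falls.

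Read as culture numbers, the numbers of the FL libraries pair them. With culture as a block 1 member rose and 4 fell, with 3.69% and 3.19% of all genes. Irf1 had 1843, 876 and 1326 CPM with 0.05 µM AZD5582, 838, 257 and 344 CPM in DMSO and 126, 131 and 163 CPM at t0. It was higher with the compound in each of the 3 cultures, at 1.57 ± 0.34 in the blocked fit (adjusted p = 0.0381) and 1.49 ± 0.45 without the block (adjusted p = 0.13); DESeq2 and the model of all 24 libraries called it (adjusted p = 0.0213 and 0.0018). Mx1 had 78.3, 59.8 and 50.0 CPM with 0.05 µM AZD5582, 134, 83.7 and 112 CPM in DMSO and 211.5, 142 and 147 CPM at t0. It was lower in each culture, at -0.81 ± 0.15 in the blocked fit (adjusted p = 0.0254) and -0.81 ± 0.25 without it (adjusted p = 0.136), and it too was called in the model of all 24 libraries (adjusted p = 0.0205). Mx2 had 0.723, 1.31 and 0.701 CPM with 0.05 µM AZD5582, 2.39, 2.48 and 4.36 CPM in DMSO and 16, 11.5 and 8.76 CPM at t0. Its blocked value was -1.78 ± 0.42 (adjusted p = 0.0499), against -1.76 ± 0.39 without the block (adjusted p = 0.0507), and it was also called under median-of-ratios scaling, without the filter, with DESeq2 and in the model of all 24 libraries (adjusted p 0.000452 to 0.0472). Isg15 had 111, 73 and 114 CPM with 0.05 µM AZD5582, 77.1, 19.1 and 28.5 CPM in DMSO and 33.2, 35.4 and 42.2 CPM at t0. It was higher with the compound in each culture, but the groups overlapped through the DMSO library of culture 91, and it was not called (1.25 ± 0.46, adjusted p = 0.201) except in the model of all 24 libraries (1.26, adjusted p = 0.0167) and without that DMSO library or all of culture 91.

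Without culture 91 in any FL group, a comparison added after the libraries were seen, 4 members rose and 8 fell with AZD5582, with 8.03% and 6.05% of all genes. The rises were those of Isg15 (2.01, adjusted p = 0.00375), Irf1 (1.92, adjusted p = 0.0031), Oasl1 (0.95, adjusted p = 0.0337) and Ifi35 (0.61, adjusted p = 0.0474). Oas2 (-1.59), Mx2 (-1.72), Oas3 (-1.06), Xaf1 (-0.91), Gbp3 (-0.85), Mx1 (-0.80), Irgm1 (-0.70) and Oasl2 (-0.59) fell. At 0.1 µM in GM cultures the first 4 were at 0.56, 1.35, 1.20 and 0.59, and the other 8, in the same order, at -0.60, -0.78, -0.41, -0.09, -1.14, -0.39, -0.70 and -0.05. Of these, Oas2, Oas3, Xaf1, Mx1 and Oasl2 were not called there, and Xaf1 and Oasl2 could turn sign with a library left out. The doses differ between the cultures, and these members were chosen by their calls in FL cultures. Markers of other cell types also differed in FL cultures. The neutrophil markers had a median summed level of 312 CPM with AZD5582 (164 to 3423 CPM), 3807 CPM in DMSO (1964 to 9482 CPM) and 2011 CPM at t0. The macrophage markers had medians of 123 CPM with AZD5582, 335 CPM in DMSO and 295 CPM at t0, and the monocyte markers of 77.2, 213 and 195 CPM in the same order. Among the macrophage markers Mertk went the other way, with means of 29.9, 9.45 and 5.82 CPM in that order. The part of all these markers in the changes of the FL cultures was not tested.

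The AZD5582 effect at 0.05 µM in FL cultures minus that at 0.1 µM in GM cultures, which compares different doses, was called for 0 of the 41 members in either direction by edgeR, with 0.967% of all 17262 genes higher and 0.707% lower. At an unadjusted p under 0.05 it was higher for 1 and lower for 6, and DESeq2 called 0 higher and 1 lower. The shares of all genes above do not apply to these counts, and those at these settings are not given here. With culture as a block 0 were called higher (2.47% of all genes), and Bst2 (-0.75 ± 0.16, adjusted p = 0.0137), Gbp5 (-0.78 ± 0.19, adjusted p = 0.0268) and Herc6 (-0.98 ± 0.25, adjusted p = 0.0362) were called lower, with 1.8% of all genes. Without culture 91 and without the block, Isg15 (1.48, adjusted p = 0.0226), Ifit1 (1.48, adjusted p = 0.0243) and Parp14 (0.71, adjusted p = 0.0405) were higher and Bst2 (-0.78, adjusted p = 0.0156) was lower, with 2.76% and 1.82% of all genes, and Gbp5 (-0.46, adjusted p = 0.336) and Herc6 (-0.64, adjusted p = 0.13) were not called. A difference that was not called does not show that the cultures acted alike.

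Over 24 h in DMSO more members fell than rose in FL cultures. Relative to t0, 3 members rose and 14 fell, with 4.96% and 5.18% of all genes, at a median of -0.79 against 0.03 over all genes. The falls were those of 11 effectors, 1 GTPase and 2 regulators and the rises those of 2 GTPases and 1 regulator, and the medians of the roles were -0.96, -0.36 and -0.78. With culture as a block 4 rose and 19 fell, with 9.23% and 10.2% of all genes. Irf7 had 4.05, 8.17 and 8.3 CPM with 0.05 µM AZD5582, 6.29, 8.11 and 18.7 CPM in DMSO and 63.7, 44.6 and 46.9 CPM at t0. Every t0 library was above every DMSO library, and the change was -2.22 ± 0.44 (adjusted p = 0.0244). Ifi44 had 0.459, 1.27 and 1.24 CPM with 0.05 µM AZD5582, 1.8, 1.7 and 3.24 CPM in DMSO and 17.1, 12.4 and 11.1 CPM at t0, again without overlap between DMSO and t0, and a change of -2.58 ± 0.44 (adjusted p = 0.0178). Oas3 (-2.01 ± 0.32), Mx2 (-1.97 ± 0.38) and Dhx58 (-1.76 ± 0.29) also fell. Gbp2 had 479.8, 339 and 527 CPM with 0.05 µM AZD5582, 989, 392 and 468.5 CPM in DMSO and 169, 138 and 185 CPM at t0. Its DMSO libraries were all above t0, and it rose by 1.91 ± 0.36 (adjusted p = 0.022). Irf1 and Gbp5 rose by 1.78 ± 0.46 and 1.31 ± 0.24 (adjusted p = 0.0439 and 0.0203). These calls rest on 3 t0 libraries: without the t0 library of culture 91 or of culture 95 none was left in either direction, and without that of culture 94 there were 0 rises and 4 falls. Without the DMSO library of culture 91 or of culture 94 there were 9 falls, and with culture 91 left out of every FL group 3 rises and 17 falls (4.39% and 6.15% of all genes). The rise of Irf1 was not called when only these groups entered the fit (adjusted p = 0.0642), and it was 1.10 without the DMSO library of culture 91 (adjusted p = 0.0645) and 1.02 without culture 91 (adjusted p = 0.0365).

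The change over 24 h differed between the cultures. In the test of the difference, FL minus GM, 16 members were lower and 0 higher (also 0 with DESeq2, and 1 at an unadjusted p under 0.05), with 3.96% and 0.881% of all genes. These were 12 effectors, 1 GTPase and 3 regulators, and the medians of the roles were -0.98, -0.47 and -1.12, against -0.12 over all genes. With culture as a block 23 were lower and 0 higher, with 7.62% and 2.14% of all genes. Mx2 was at -1.97 in FL and 0.72 in GM cultures, a difference of -2.70 ± 0.42 (adjusted p = 0.000616). Irf7 was at -2.22 in FL and 0.16 in GM cultures, a difference of -2.40 ± 0.53 (adjusted p = 0.0115). The IFIT genes, which rose in GM cultures, were at -1.03 (Ifit1), -1.42 (Ifit2) and -1.03 (Ifit3) in FL cultures, with differences of -1.85 ± 0.43, -2.17 ± 0.45 and -2.19 ± 0.58. The call of Ifit3 was lost without any of 7 libraries (adjusted p 0.0617 to 0.0926) and that of Ifit1 without the third GM t0 library (adjusted p = 0.0523). Stat2 (-1.12 ± 0.20, adjusted p = 0.00259) and Irf9 (-0.75 ± 0.17, adjusted p = 0.0122) were among the 3 regulators lower in this test. For Gbp2, Gbp3, Gbp5, Isg15 and Herc6 the difference was not called, at 0.86, 0.41, 0.17, -0.16 and 0.28. Without culture 91 these were 0.36, 0.49, -0.08, -1.03 and -0.26, again not called, so that the sign for Gbp5 and Herc6 depends on that culture. Without the FL DMSO library of culture 94 Gbp2 was called, at 1.09 (adjusted p = 0.0478). The number lower was 8 without the third GM t0 library, 9 without the first, and 10 without the FL t0 library of culture 91 or the second GM DMSO library, and 22 with culture 91 left out of every FL group, where 0 were higher (10.6% and 4.25% of all genes). Without the low-count filter it was 8, with Ifit3, Irf7 and Irf9 among those no longer called (adjusted p = 0.0962, 0.05 and 0.0551). Culture age (day 16 and day 8), growth factors and culture identity differ together between FL and GM cultures and cannot be told apart.

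**Figure D4:**
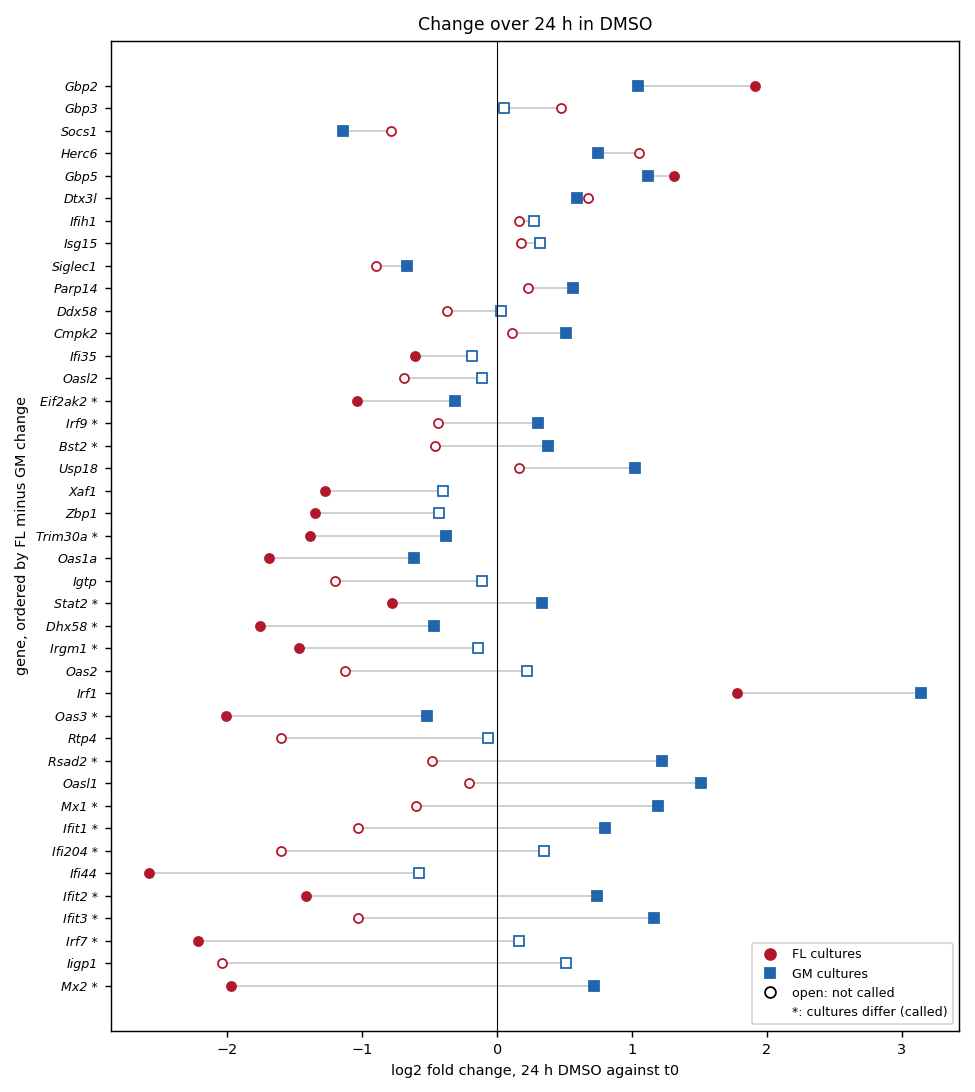
Log2 fold change over 24 h in DMSO (horizontal axis) of each of the 41 genes (rows) in FL cultures (red circles) and GM cultures (blue squares), ordered by the difference. Filled symbols were called against t0, and a star marks the 16 genes whose change differed between the cultures; Mx2, at the bottom, was at -1.97 in FL and 0.72 in GM cultures.

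At t0, before any treatment, FL cultures had 16 members higher and 10 lower than GM cultures, with 23.4% and 17.5% of all genes, at a median of 0.08 against 0.09. In the group of 5 regulators 4 were higher and 0 lower, also 0 at an unadjusted p under 0.05 and with DESeq2, Irf1 at 2.01 ± 0.31 and Stat2 at 1.90 ± 0.15 (adjusted p = 2.54e-05 and 3.77e-09). With culture 91 left out 14 members were higher and 11 lower (25.7% and 20.7% of all genes). The higher members numbered 10 without the first GM t0 library and 9 without the third, and Irf9 and Socs1 were not called without the low-count filter (adjusted p = 0.102 and 0.0609). Stat2 had 289, 223 and 229 CPM in FL and 65.7, 64.3 and 68 CPM in GM cultures, without overlap. Oasl1 had 41, 45.2 and 41.7 CPM in FL and 4.32, 8.48 and 4.37 CPM in GM cultures, a difference of 2.90 ± 0.40 (adjusted p = 8.28e-06). Gbp5 was also higher, at 1.99 ± 0.20. Siglec1 showed the widest gap, with 0.628, 0.527 and 1.16 CPM in FL and 55.4, 63.6 and 37.4 CPM in GM cultures, or -6.09 ± 0.44 (adjusted p = 1.69e-09). The summed macrophage markers had medians of 295 CPM in FL and 2690 CPM in GM cultures at t0, and their part in that gap was not tested. Rtp4, a chaperone-like receptor transporter (-2.44 ± 0.45), Ddx58 (-2.26 ± 0.34) and Ifit3 (-1.72 ± 0.41) were lower in FL cultures.

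Levels can be ranked between genes only per length. Per kilobase of exon, the highest mean levels in GM DMSO cultures were those of Bst2 (191 CPM), Gbp2 (147 CPM) and Irf1 (77.7 CPM), and the lowest those of Ifi44 (0.602 CPM) and Iigp1 (0.381 CPM). In FL DMSO cultures the highest were Gbp2 (245 CPM), Bst2 (141 CPM) and Irf1 (121 CPM), and the lowest Siglec1 (0.0567 CPM) and Iigp1 (0.022 CPM).

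Other genes of the pathway, in lists that hold no member, were also called in both directions at 1 µM AZD5582 in GM cultures, where 26.9% of all genes tested rose and 28.2% fell. Of 14 receptor, JAK and STAT genes 4 rose and 6 fell, at a median of -0.13. Ptpn2, a phosphatase that dampens JAK and STAT signals, rose by 0.77 ± 0.09, whereas the receptor genes Ifngr1 and Ifnar1 fell, at -1.92 ± 0.10 and -0.90 ± 0.08. Of 20 genes that sense nucleic acids or induce interferons 6 rose and 12 fell, at a median of -0.53. Irf8, a lineage factor of DCs, and Traf3, an adaptor of interferon induction, rose by 1.71 ± 0.10 and 1.17 ± 0.10, and Ikbke, a kinase that activates IRF3, and Unc93b1, a chaperone of endosomal Toll-like receptors, fell, at -2.60 ± 0.11 and -2.27 ± 0.12. Of 40 other type I targets tested 7 rose and 26 fell, at a median of -0.90, Helz2 rising by 1.68 ± 0.13 and Rnf213 falling, at -2.09 ± 0.14. Of 24 other type II targets tested 9 rose and 13 fell, at a median of -0.80. Cd274, the checkpoint ligand PD-L1, rose by 1.08 ± 0.10 and Gbp7 fell, at -2.34 ± 0.25. The shares of rises among the receptor, JAK and STAT genes and the sensing genes were near that of all genes. These lists too were chosen with earlier results of these data known.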

How the data were processed

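Gene counts per library were deposited by the authors as raw counts, made per the submitters' processing notes with STAR 2.7.3a and HTSeq 0.12.4 on mouse build GRCm39; DESeq2 1.30.1 is also named. Both the annotation release and the strand setting were not given in the sources used here. Per the labels' protocols, RNA with an integrity number above 8 was made into stranded mRNA libraries. Lines that name no gene (10.98 to 16.42% of counted reads) were kept out of library sizes and tests.

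From these counts, edgeR 4.0.16 (R 4.3.3, limma 3.58.1) was run with TMM scaling, its default low-count filter and the robust quasi-likelihood test, on the 15 GM libraries, the 9 FL libraries, or all 24 where FL and GM were compared. P-values were Benjamini-Hochberg adjusted over all genes tested and called under 0.05. SE is the absolute log2 fold change divided by the square root of F. CPM used TMM factors over all 24 libraries. The scripts were tested on simulated data. Symbols came from GENCODE M21 (52081 of 55414 identifiers) and promoters from RefSeq GRCm38.p6, a build other than that of the counts (30 of 41 members matched).

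The members and lists were chosen with earlier results of these data known. Values in every library are given for all GTPases and regulators and, in each effector list, for the 2 members with the smallest p at 1 µM and the 1 with the largest change against the majority (both members in lists of 2); elsewhere up to 4 rises and 4 falls are named, and in pathway lists up to 2 each way. Other members are named to complete a family. A pathway gene that this rule names is not reported here.

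Same-numbered FL libraries deviated together (correlations of 0.135 to 0.689 over 9 pairs, with -0.671 to 0.338 for other pairs), so culture was used as a block beside the unblocked fit. Alternatives were median-of-ratios scaling, no filter, DESeq2 1.42.0, compared groups only, all 24 libraries, the block, leaving out each library, and, chosen after seeing the data, leaving out culture 91. Counts of reads are not independent molecules, so that intervals would cover counting error only.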

Additional observations from a re-analysis of the deposited data

Results flagged for a closer look

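For 16 interferon response genes the change over 24 h in DMSO differed between the cultures in the test of the difference itself (edgeR, adjusted p under 0.05), and each was lower in FL than in GM cultures. The FL minus GM differences on the log2 scale were -2.70 for Mx2, -1.80 for Mx1, -1.71 for Rsad2, -0.86 for Bst2 and -1.03 for Trim30a among the antiviral genes. They were -2.17 for Ifit2, -2.19 for Ifit3 and -1.85 for Ifit1 in the IFIT family, and -1.50 for Oas3 and -0.74 for Eif2ak2 among the OAS genes and PKR. The sensors Ifi204 and Dhx58 had differences of -1.96 and -1.30, the GTPase Irgm1 of -1.35, and the regulators Irf7, Stat2 and Irf9 of -2.40, -1.12 and -0.75. Neutrophil markers summed to medians of 3807 CPM in DMSO and 2011 CPM at t0 in FL cultures, and to 377 and 320 CPM in GM cultures. The cDC1 markers summed to medians of 287 CPM in DMSO and 795 CPM at t0 in FL cultures, and to 61.4 and 65.1 CPM in GM cultures. The part of both sets of markers in these differences was not tested.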

How the results depend on the processing

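No called change of a named member turned its sign under any alternative run. The counts of members in this section are given without the shares of all genes under the same alternatives. In 1 model of all 24 libraries, 5 members rose and 8 fell at 0.1 µM in GM cultures, 5 rose at 0.5 µM and 5 at 1 µM, 0 rose and 11 fell at 1 µM against 0.1 µM, and 1 fell over 24 h in DMSO; in FL cultures 3 rose and 13 fell with AZD5582 and 5 rose over 24 h. With the compared groups only, 0 rose at 1 µM against 0.1 µM and 0 fell with AZD5582 in FL cultures. DESeq2 called 2 rises and 6 falls with AZD5582 in FL cultures, and 1 lower in the FL minus GM difference of the AZD5582 effect, as did median-of-ratios scaling. Without the low-count filter 8 were lower in the FL minus GM difference over 24 h. Without culture 91 in every FL group, 4 rose and 8 fell with AZD5582, 3 rose and 17 fell over 24 h, 14 were higher and 11 lower than GM cultures at t0, the FL minus GM difference over 24 h was higher for 0 and lower for 22, and that of the AZD5582 effect was higher for 3 and lower for 1.

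With the replicate block, 1 rose and 4 fell with AZD5582 in FL cultures and 3 were lower in the difference of that effect; the numbers of members called over 24 h in DMSO are given beside the unblocked ones. In GM cultures same-numbered libraries correlated at 0.0102 to 0.226 over 30 pairs, with -0.127 to 0.0573 for the 60 other pairs. No label says what this number stands for. The replicate block there gave 9 rises and 15 falls at 0.1 µM, 10 and 27 at 0.5 µM and at 1 µM, 2 and 25 at 1 µM against 0.1 µM, 19 and 7 over 24 h, and 12 and 24 at 1 µM against t0.

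Leaving out 1 library at a time gave 6 to 7 rises and 9 to 16 falls at 0.1 µM, 6 to 10 and 26 to 27 at 0.5 µM, and 8 to 10 and 26 to 27 at 1 µM. It gave 0 to 3 and 20 to 26 at 1 µM against 0.1 µM, 14 to 21 and 1 to 7 over 24 h in GM cultures, and 10 to 12 and 23 to 25 at 1 µM against t0. In FL cultures it gave 0 to 3 rises and 0 to 5 falls with AZD5582, and 0 to 4 and 0 to 10 over 24 h. Between cultures it gave 9 to 15 higher and 9 to 10 lower at t0, 0 to 1 and 8 to 20 in the difference over 24 h, and 0 to 2 and 0 to 1 in the difference of the AZD5582 effect. These fits hold fewer libraries, and the cause of these shifts was not tested.

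Of the changes that were not called and whose values are given, these turned sign. Stat2 at 0.1 µM was at 0.00 with DESeq2 and under median-of-ratios scaling, and at -0.09 to 0.05 with a library left out. Stat2 at 0.5 µM was at -0.02 without the filter, -0.08 in the model of all 24 libraries and -0.05 to 0.07 with a library left out. Irf9 was at -0.04 at 0.5 µM and -0.08 at 1 µM in that model, and at -0.02 to 0.12 at 1 µM with a library left out. At 0.1 µM Irf7 was at -0.06 to 0.21 and Socs1 at -0.00 to 0.40 with a library left out. At 0.1 µM Oasl2 was at -0.33 to 0.09 and Xaf1 at -0.19 to 0.05, and over 24 h in GM cultures Irf7 was at -0.02 to 0.53. In the FL minus GM difference over 24 h Isg15 was at -0.96 to 0.18, Herc6 at -0.24 to 0.55 and Gbp5 at -0.08 to 0.30, and without culture 91 Herc6 was at -0.26 and Gbp5 at -0.08. A further 65 uncalled pairs of member and comparison turned sign under some alternative. No interferon gene passed the low-count filter, so that no change in them was tested.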
